A study of Mus musculus with 6 samples.

Results

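The miR-200 family consists of 5 mouse microRNAs (miRNAs, short RNAs that repress the transcripts they pair with), namely mmu-miR-200a, mmu-miR-200b, mmu-miR-200c, mmu-miR-141 and mmu-miR-429. It was followed here, without and with Activin, in the embryonic stem (ES) cell line EB3, derived from 129/Ola mice. The members were picked by name, as 5 of the 611 mouse miRNAs on a single-colour Agilent miRNA array, and their star strands (the partner strands of the same hairpins) were kept apart. The submitters' titles and source names give 3 control samples marked Activin (-) and 3 samples differentiated with Activin, marked Activin (+), with 1 array per sample. For the Activin samples the labels describe embryoid bodies formed over 3 days with 10 ng/ml Activin, then 15 days on gelatin-coated dishes with 10 ng/ml Activin, and harvest on day 18. The deposited culture text is the same for all 6 samples and mentions Activin in each, so whether the control cells were undifferentiated or were differentiated without Activin is not stated in the sources used here. Nothing says that replicates were grown as separate cultures, and the p-values therefore measure only how far these samples differ, which could be technical spread.

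The miR-200 family is known for keeping cells epithelial. Its members repress Zeb1 and Zeb2, transcription factors that shut off the gene for E-cadherin, the adhesion protein that holds epithelial cells together, and the Zeb factors in turn repress the genes of the family. TGF-beta, a relative of Activin, is known to raise the Zeb factors in epithelial cells, and ES cells themselves carry E-cadherin. The array measures miRNAs and gives no value for E-cadherin or the Zeb factors.

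The mature sequences are shown because the family's members are near copies of each other, and because the pattern of detection described below split the members the way their seeds do. They are given 5′ to 3′ as in RefSeq (GRCm38.p6), which held all 5 members, and the capitals mark the seed, bases 2 to 8, which sets most of the target choice.
mmu-miR-200b: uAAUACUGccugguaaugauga
mmu-miR-200c: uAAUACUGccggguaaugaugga
mmu-miR-429: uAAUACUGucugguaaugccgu
mmu-miR-200a: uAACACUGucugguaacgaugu
mmu-miR-141: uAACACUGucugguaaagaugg
The first 3 share the seed AAUACUG, and the last 2 share AACACUG. Among 1738 mature mouse entries in the RefSeq table, no miRNA outside the family had either seed. The 2 seeds differ at 1 position, U4C from miR-200b to miR-141, counted from 1 at the 5′ end of the mature miRNA.

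The genes lie in 2 clusters, and each cluster holds both seeds. On chromosome 4, minus strand, the hairpins of mmu-miR-429 (chr4:156053905-156053987), mmu-miR-200a (chr4:156054896-156054985) and mmu-miR-200b (chr4:156055681-156055750) span 1846 bases and lie wholly inside the annotated long non-coding RNA gene Gm13648, next to the protein-coding gene Ttll10. On chromosome 6, minus strand, the hairpins of mmu-miR-141 (chr6:124717914-124717985) and mmu-miR-200c (chr6:124718322-124718390) span 477 bases, between the protein-coding genes Phb2 and Ptpn6. These coordinates are of GRCm38.p6 and were not taken from the array files. The closest relatives by sequence sit in different clusters. miR-200b and miR-200c were the same at 20 of the 22 positions compared, with the changes U11G and A22G, and miR-200a and miR-141 were also the same at 20 of 22, with C17A and U22G. The files do not give the probe sequences, so how much of the signal of one member came from its near copy was not tested.

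Each member was read by 2 probes with 10 spots each on every array, and values are background-subtracted spot intensities in the scanner's linear units. Of the 6 arrays, 2 were dim, namely control 1 and Activin 2. On these, 80 and 54 mouse miRNAs were detected, against 110 to 119 on the other 4 arrays, and the 75th percentile of the probes used for scaling was 249 and 177 units against 427 to 616. Their median coefficient of variation between spots was 17.6% and 15.8%, which the software marked as out of range, against 6.88% to 9.59% on the others. The software marked the labelling spike-in signal as out of range on all 6 arrays. A probe counts here as detected when the software's flag put a share above 0.5 of its spots well above background, and a miRNA when at least 1 of its probes was. By that rule 130 of the 611 mouse miRNAs (21.3%) were detected on at least 1 array and 53 (8.67%) on all 6. The number of arrays limits the precision of all values below.

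Whether a member was detected went with its seed and not with its cluster. The members with seed AAUACUG were detected, miR-200c on all 6 arrays, miR-200b on 5 (all but Activin 2) and miR-429 on 4 (all but the dim pair). The members with seed AACACUG, miR-200a and miR-141, were detected on none. Thus from each cluster at least 1 member was detected while its neighbour miR-200a or miR-141 was not. Position 17, outside the seed, splits the members in the same way (U17A from miR-200b to miR-141 and C17U from miR-200a to miR-200b, miR-200c and miR-429), so detection does not single out the seed base. The software's own call per miRNA gave miR-200b and miR-200c on 6 arrays, miR-429 on 5, miR-141 on 1 (control 2) and miR-200a on 0. Different probes bind with different strength, so the array does not show whether miR-200a and miR-141 were less abundant than the others.

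miR-200b was read by 1 of its 2 probes. The brighter probe gave 34.2, 87.6 and 89.6 units on control 1, 2 and 3, and 106, 47.7 and 82.9 units on Activin 1, 2 and 3. The dim arrays were the lowest of each group, and the 2 groups overlapped. On control 1 this probe had 8 of 10 spots well above background and on Activin 2 it had 4 of 10, although its mean was higher on Activin 2. The other probe lay between -1.95 and 6.75 units and was not detected on any array.

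miR-200c was also read by 1 probe. That probe gave 38.4, 75.2 and 59.9 units on control 1, 2 and 3, and 68.7, 47.7 and 51.1 units on Activin 1, 2 and 3. Control 1 was the lowest and control 2 the highest of all 6, so the Activin values lay inside the control range. At least 6 of 10 spots were well above background on every array, the fewest being on Activin 2. The other probe lay between -2.77 and 5.97 units and was not detected on any array.

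miR-429 was the member for which both probes gave signal. One probe gave 16.9, 64.2 and 55.2 units on control 1, 2 and 3, and 76.7, 23.5 and 58.6 units on Activin 1, 2 and 3. The other gave 19.4, 48.7 and 45.9 units without Activin and 64.8, 23.2 and 46.5 units with Activin. Both probes ranked the 6 arrays in the same order, with the dim arrays lowest and Activin 1 highest. Over the control arrays 43 of 57 kept spots were well above background, and over the Activin arrays 39 of 58.

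miR-200a and miR-141 stayed near the negative-control spots, whose mean was 2.81 to 5.66 units. The brighter probe of miR-200a gave 2.16, 16.8 and 8.63 units on control 1, 2 and 3, and 15.9, 0.582 and 5.51 units on Activin 1, 2 and 3. Its highest values, on control 2 and Activin 1, lay 2.31 and 2.06 standard deviations of the negative-control spots above their mean. The brighter probe of miR-141 gave 5.95, 17.9 and 8.87 units on control 1, 2 and 3, and 9.99, 7.37 and 0.0900 units on Activin 1, 2 and 3. Its value on control 2 lay 2.51 such standard deviations above the mean, and that is the array on which the software called it detected. No spot of either member was well above background, which was 0 of 59 kept spots on control and 0 of 56 on Activin arrays for miR-200a, and 0 of 56 and 0 of 53 for miR-141. No fold change is given for them, since neither was detected on any array of either group.

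**Figure D1:**
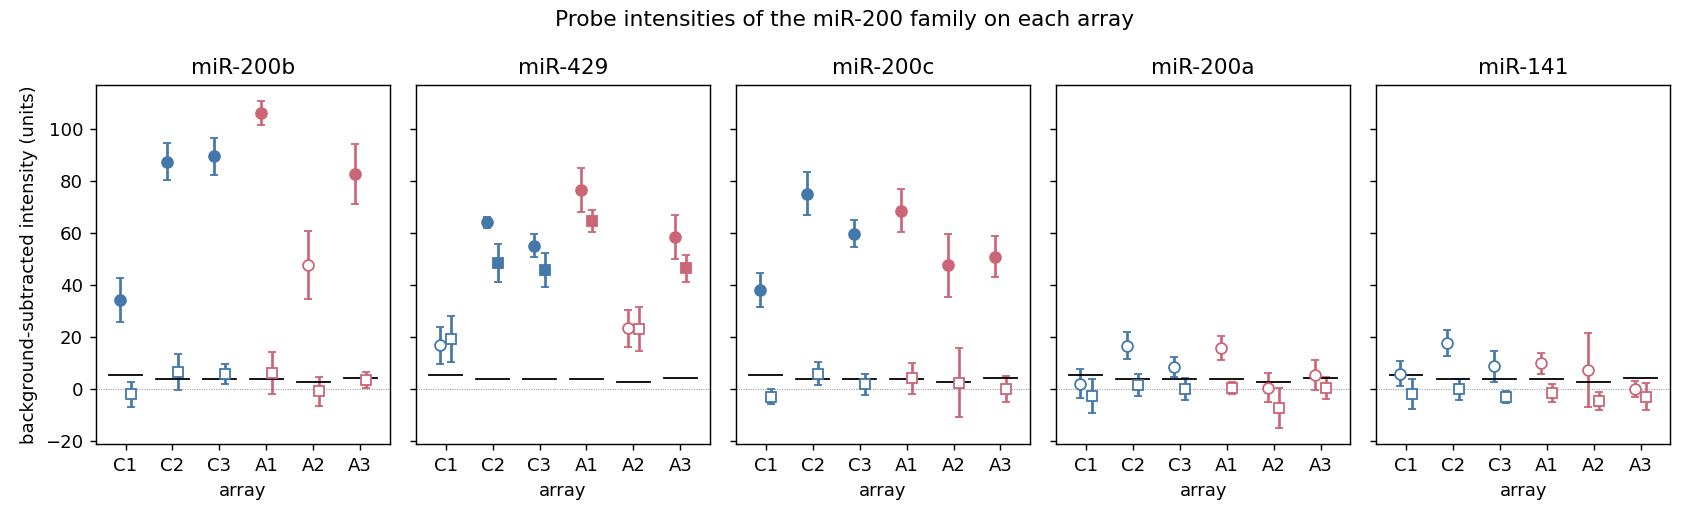
Background-subtracted intensity (linear units) of both probes of each member on every array, with control arrays (C1 to C3) in blue and Activin arrays (A1 to A3) in red; circles are the brighter probe, squares the other, points the mean and bars the SD over spots, filled points are detected, and black dashes are the mean of the negative-control spots on that array. miR-200b and miR-200c rise above the dashes with 1 probe and miR-429 with both, while miR-200a and miR-141 reach at most 16.8 and 17.9 units.

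**Figure D2:**
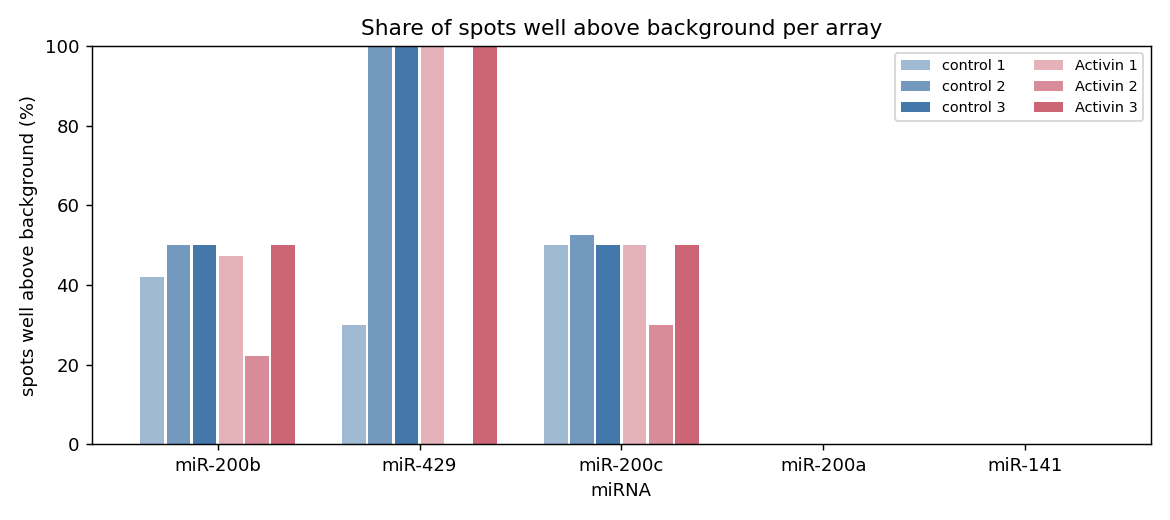
Share of kept spots (%) of each member that were well above background on each array, over both probes, with control arrays in blue shades and Activin arrays in red shades. miR-200b and miR-200c, each with 1 of 2 probes detected, have bars on all arrays, miR-429 on all but Activin 2, and miR-200a and miR-141 on none.

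The star strands gave no signal. Of the 5, the array held those of miR-200a, miR-200b, miR-200c and miR-141, and 0 of 473 kept spots over the 6 arrays were well above background. Their mean intensities ran from -7.11 to 0.925 units.

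Between the groups, neither of the members that could be tested passed the test. For this comparison each miRNA's mean over probes was divided by the array's 75th percentile, taken over the 59 probes detected on all 6 arrays, floored, and put on a log2 scale. The test (limma, with Benjamini-Hochberg adjustment over the 79 mouse miRNAs detected on every array of 1 group or of both) covered 2 of the 5 members, miR-200b and miR-200c. It took the spread mostly from all tested miRNAs together, with 194 prior degrees of freedom beside 4 from a miRNA's own arrays. The SEs of all 79 therefore lay between 0.293 and 0.310, and the intervals hardly reflect a single miRNA's own spread. Neither was called at an adjusted p under 0.05, while 1 of the 79 tested miRNAs (1.27%) was. The groups overlapped for both members, while 14 of the 79 tested miRNAs (17.7%) had groups that did not overlap. Over all tested miRNAs the median log2 fold change was 0.17, so values near that level do not stand apart from the rest.

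The scaled log2 signal of miR-200b was -3.95, -3.71 and -3.16 on control 1, 2 and 3 and -3.34, -2.92 and -3.68 on Activin 1, 2 and 3. The group means were -3.60 ± 0.40 and -3.31 ± 0.38 (SD, n = 3 each). Activin 2, where the probe failed the detection rule, was the highest of the 6, and control 3 and Activin 1 lay within each other's group range. The log2 fold change of Activin over control was 0.29 (SE 0.30, 95% interval -0.29 to 0.88, adjusted p 0.619 by limma). As a fold this is 1.23, with an interval from 0.817 to 1.84 in this setting. The upper bound depended on the setting, from 1.26 without both dim arrays to 3.25 with no scaling. Without Activin 2 the log2 fold change was -0.07, and without both dim arrays it was -0.05 (95% interval -0.43 to 0.34, adjusted p 0.892 by limma).

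The scaled log2 signal of miR-200c was -3.81, -3.92 and -3.79 on control 1, 2 and 3 and -3.96, -2.82 and -4.44 on Activin 1, 2 and 3. The control arrays lay close together (mean -3.84 ± 0.07, SD, n = 3), and the Activin arrays were spread on both sides of them (mean -3.74 ± 0.83, SD, n = 3). Activin 2 was above all control arrays, and Activin 1 and Activin 3 were below them. The log2 fold change was 0.10 (SE 0.30, 95% interval -0.49 to 0.69, adjusted p 0.887 by limma). This is 1.07-fold, with an interval from 0.710 to 1.62. Fitted with no filter, over 611 mouse miRNAs, the same log2 fold change had an SE of 0.48 and a 95% interval from -1.22 to 1.42. The sign was not steady and turned in 11 of 26 alternative settings, some of which kept all arrays. Without Activin 2 the log2 fold change was -0.53 (adjusted p 0.451 by limma). Without both dim arrays it was -0.32 (SE 0.16, 95% interval -0.75 to 0.12, adjusted p 0.433 by limma).

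The scaled log2 signal of miR-429 was -3.78, -3.45 and -3.08 on control 1, 2 and 3 and -3.01, -2.92 and -3.40 on Activin 1, 2 and 3. Control averaged -3.43 ± 0.35 and Activin -3.11 ± 0.25 (SD, n = 3 each), and Activin 3 lay below control 3, so the groups overlapped. miR-429 was not among the 79 tested miRNAs, because it was not detected on control 1 and Activin 2. The difference of its means was 0.32 on the log2 scale, with a two-sided exact permutation p of 0.2, where 3 arrays against 3 cannot give a p under 0.1. Without both dim arrays, on which it was not detected, the log2 fold change was 0.09 (SE 0.12, 95% interval -0.26 to 0.43, adjusted p 0.759 by limma over 115 miRNAs).

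**Figure D3:**
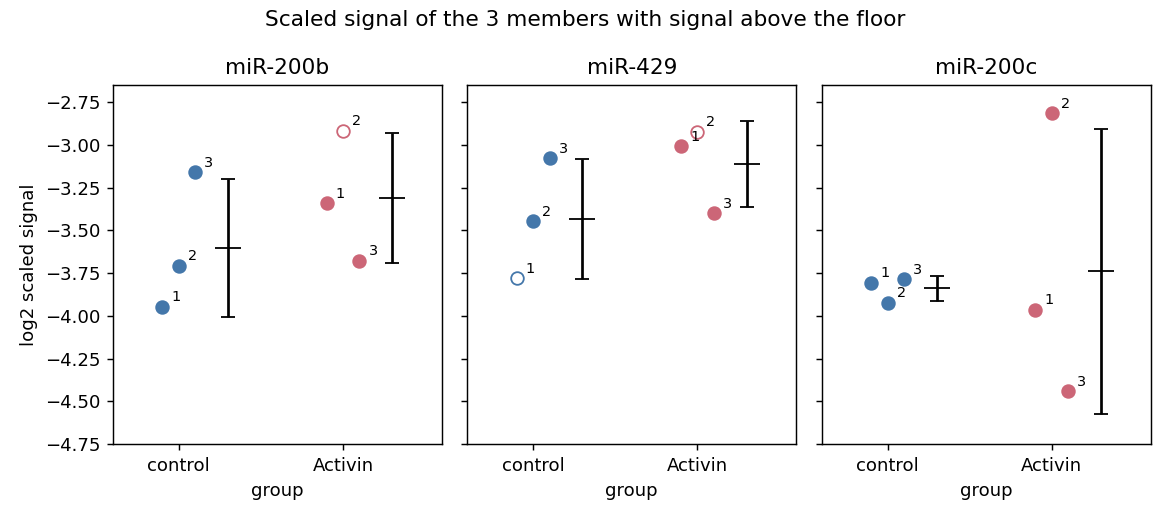
Scaled log2 signal of miR-200b, miR-429 and miR-200c on each array, by group, with control arrays in blue and Activin arrays in red; numbers are the replicate, open points are arrays on which the member was not detected, and black bars are the mean and SD (n = 3). The groups overlap for all 3 members, and Activin 2 is the highest point of each.

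The position of an array on the slide differed between the groups, and the change of both tested members depended on which positions were compared. With 1 array at each position, position cannot be told apart from differences between single arrays. Control 1, 2 and 3 and Activin 1 lay in row 1 of the slide, and Activin 2 and 3 in row 2, with all arrays read in the same scan. Between the arrays that share column 1, control 1 and Activin 2, miR-200b was 1.03 higher and miR-200c 0.99 higher with Activin on the log2 scale. Between the arrays of column 2, control 2 and Activin 3, the difference was 0.03 for miR-200b and -0.51 for miR-200c. Both arrays of column 1 were the dim ones, so column and brightness cannot be told apart. Within row 1, Activin 1 minus the control mean was 0.26 for miR-200b and -0.12 for miR-200c. Row 2 holds Activin arrays alone, so a fit with the row as a block rests on that 1 Activin array against 3 controls and gave the same 0.26 and -0.12. The limma adjusted p of 0.899 and 0.982 from it assume that the lone array varies like the others.

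**Figure D4:**
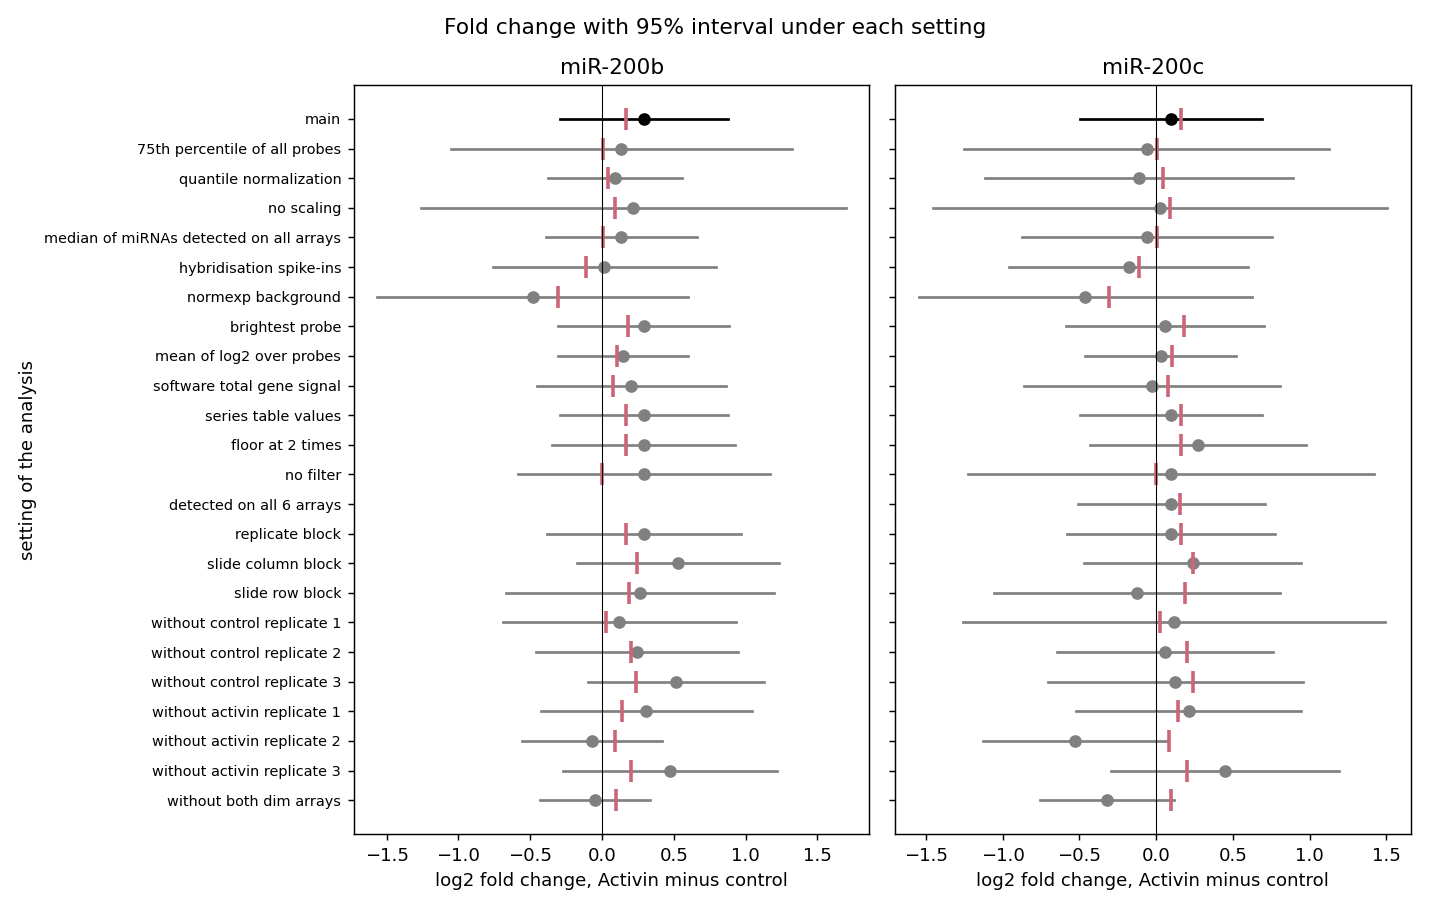
Log2 fold change (Activin minus control) of miR-200b and miR-200c with its 95% limma interval under each setting of the analysis, the top row in black being the values given above; red ticks are the median over all miRNAs tested under that setting. Every interval shown crosses 0, and the points of both members lie on either side of 0 depending on the setting; miR-200b has no value where detection on all 6 arrays was required.

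The difference between members within an array is the same under any scaling by 1 factor per array, which made it another way to compare the groups. miR-200b minus miR-200c, a pair with one seed but from different clusters, was -0.14, 0.22 and 0.63 on control 1, 2 and 3 and 0.62, -0.10 and 0.76 on Activin 1, 2 and 3 (log2). Only its change between arrays can be read, since the 2 miRNAs have different probes. The dim arrays gave the lowest value of each group. The group means were 0.23 ± 0.38 and 0.43 ± 0.46 (SD, n = 3 each). The difference of 0.19 was smaller than either SD, with a two-sided exact permutation p of 0.6. Between the arrays that share a slide column it was 0.040 in column 1 and 0.54 in column 2, and with the floor at 2 times its value it was 0.015.

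The pair from one cluster kept a steadier difference than the pairs from different clusters. This was noticed in the data and is a description with no test. miR-429 minus miR-200b, both from the chromosome 4 cluster, was 0.17, 0.26 and 0.08 on control 1, 2 and 3 and 0.33, -0.01 and 0.28 on Activin 1, 2 and 3 (log2). Its SD over the 6 arrays was 0.129. miR-429 minus miR-200c, from different clusters, was 0.03, 0.48 and 0.71 without Activin and 0.95, -0.11 and 1.04 with Activin, with an SD of 0.476. For miR-200b minus miR-200c the SD was 0.395. The 3 differences share members and are not independent, and miR-429 was not detected on 2 of the arrays. Over the 4 brighter arrays the SDs were 0.108 for the pair of one cluster and 0.255 and 0.236 for the others. Scalings by 1 factor per array cannot change these values. With the brightest probe alone the SDs were 0.249 for the pair of one cluster and 0.571 and 0.362 for the others. With the mean of log2 over probes the SD of the pair of one cluster, 0.180, was about that of miR-200b minus miR-200c, 0.181. With normexp background correction or the software's total gene signal the pair of one cluster did not have the lowest SD. With normexp, which had an offset of 50, the 3 SDs ran from 0.029 to 0.080. The total gene signal of miR-429 was 0.1 on Activin 2, where the software did not detect it.

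**Figure D5:**
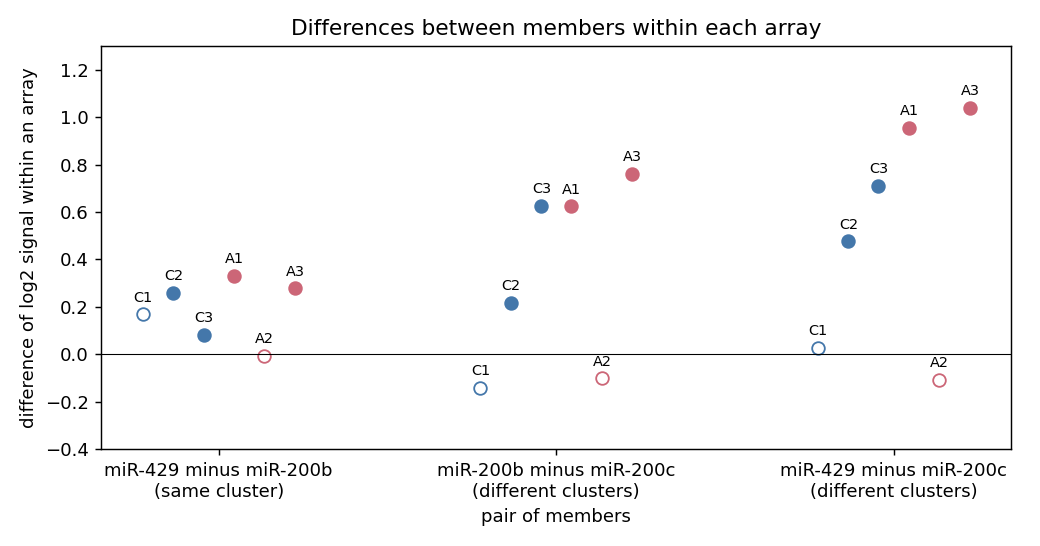
Difference of log2 signal between 2 members within each array, for the 3 pairs of detected members, with control arrays (C1 to C3) in blue, Activin arrays (A1 to A3) in red and the dim arrays as open points. The pair from one cluster stays between -0.01 and 0.33, and the pairs from different clusters reach 0.76 and 1.04.

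The miRNAs whose scaled signal ran most alike with the 2 tested members were named by Pearson's r over the 6 arrays, as a description, since all values of an array share its scaling and brightness. For miR-200b these were miR-210 (r = 0.932), miR-127 (r = 0.908) and miR-130b (r = 0.866). For miR-200c they were miR-542-5p (r = 0.848), let-7e (r = 0.804) and miR-193b (r = 0.782). The 2 members themselves had r = 0.672, which placed miR-200c at rank 30 of the 78 other tested miRNAs for miR-200b, and miR-200b at rank 8 of 78 for miR-200c.

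Other miRNAs tied to epithelial or mesenchymal cells were compared by lists that were chosen with earlier results of these data known. Of 10 other miRNAs common in epithelia, 2 were detected on any array, and 1 was tested. That one was miR-183, at 0.32 on the log2 fold change scale (limma SE 0.29, adjusted p 0.614), and the other, miR-96 of the same miR-183 family cluster, was detected on 2 control and 2 Activin arrays. Of 11 miRNAs common in mesenchymal cells, 6 were detected and tested, and 0 were called by limma, with 0 at an unadjusted p under 0.05, beside 9 of all 79 tested miRNAs. Their median log2 fold change was 0.28 beside 0.17 over all 79, and miR-214 (0.50, adjusted p 0.427 by limma), miR-199a-3p (0.34) and miR-21 (0.30) had the changes of largest size.

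Of 16 miRNAs known from pluripotent cells, 10 were detected and 6 tested. Their median log2 fold change was -0.40, 3 of the 6 had an unadjusted p under 0.05 by limma, beside 9 of all 79, and 1 was called. That one, miR-302c of the miR-302 cluster, which is active in pluripotent cells, was 1.23 higher on the log2 scale (limma SE 0.30, adjusted p 0.00597) and was the single call among the 79. Its groups overlapped, at -4.08 ± 0.89 on control and -2.85 ± 0.33 on Activin arrays (SD). It was detected on 2 control and 3 Activin arrays, so it passed the filter only through the group in which it was higher. Where detection on all 6 arrays was required it was not tested, and 0 miRNAs were called. The SE of miR-302c came mostly from the spread shared by all tested miRNAs. In 4 of 23 alternative settings miR-302c was called, and in the others nothing was. Among these 4 are the series table values, which are the same intensities. The other listed members of the miR-302 cluster were not detected on every array of either group and were not tested. miR-292-3p and miR-291a-3p, both of the cluster that is abundant in mouse ES cells, had -0.74 and -0.67 and were not called. All tested members of that second cluster were lower, from -0.37 to -0.74, so the list's median is that of a mixture dominated by it. The lists for other cell types gave 0 of 6 haematopoietic miRNAs detected and 1 of 2 endothelial ones, miR-126-3p on 1 control and 2 Activin arrays, with none tested. What part other cell types, or a change in the share of pluripotent cells, had in the family's values was not tested.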

How the data were processed

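Total RNA (100 ng per sample, labelled with Cy3 per the labels) was hybridised to single-colour Agilent mouse miRNA arrays. The deposited scanner values are linear intensity units per spot. The file headers name Agilent Feature Extraction 10.7.3.1, and the submitters' processing notes name 10.1.1. Per the file headers, background had been subtracted and outlying spots marked, and no scaling between arrays is named. The deposited series table held the same intensity values on all 13715 spots of every array.

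Spots marked as outliers were left out, and the rest were averaged per probe and then per miRNA, divided by the 75th percentile over 59 probes detected on all arrays, floored at 0.0326 (log2 of -4.94) and converted to log2. Each array held 13000 spots for 650 miRNAs, of which 611 were from mouse. A two-sided limma fit (version 3.58.1, R 4.3.3) of all 6 arrays without covariates covered 79 mouse miRNAs, those with detection throughout control, Activin or both. The code was tested on simulated data with the same spread for every miRNA and array, so that test does not cover unequal spread. Of the 474 values, 1 lay at the floor, and it belonged to no family member. Single values were compared by two-sided exact permutation tests. The named miRNAs are the 5 members, their star strands, up to 3 tested miRNAs with the largest changes in any list, and the 3 most alike to each tested member. Members, lists and tests were chosen with earlier results of these data known.

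Alternatives were other scalings, background corrections, probe summaries, floors, filters, blocks and left-out arrays. The normexp background used the median spot signal with an offset of 50, because the files hold no mean signal column. Blocks for slide row, the values within row 1, the alternatives for miR-429 and the spread of within-array differences were chosen after seeing the data. Whether replicate numbers pair the samples was not settled. The deviations of same-numbered arrays correlated at -0.64, -0.09 and 0.34, and those of differently numbered arrays at -0.61 to 0.66. With so few arrays, and a dim one in each group, these correlations cannot show whether samples were paired.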

Additional observations from a re-analysis of the deposited data

How the results depend on the processing

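By limma, 0 miRNAs were called, instead of 1, when scaling by the 75th percentile of all probes (0 at an unadjusted p under 0.05), and with quantile normalization (13), no scaling (0), the median of miRNAs detected on all arrays (9), hybridisation spike-ins (8), normexp background (0), the brightest probe (7), the mean of log2 over probes (6), the software's total gene signal (8), the floor at 2 times its value (6), no filter (6), detection on all 6 arrays (5), a slide row block (5) and without both dim arrays (8). Leaving out 1 array gave 0 to 1. The log2 fold change of miR-200b turned to -0.48 with normexp and -0.048 without both dim arrays, and ran from -0.068 to 0.52 when 1 array was left out. That of miR-200c turned to -0.060 scaled by all probes, -0.11 with quantile normalization, -0.058 with the median, -0.18 with spike-ins, -0.46 with normexp, -0.027 with the total gene signal, -0.12 with the slide row block, -0.12 within slide row 1, -0.51 within slide column 2 and -0.32 without both dim arrays, and ran from -0.53 to 0.45 when 1 array was left out. No setting put either member past the threshold. The median over all tested miRNAs moved from 0.17 to 0.01 scaled by all probes, 0.04 with quantile normalization, 0.01 with the median, -0.11 with spike-ins and -0.31 with normexp. The difference of miR-200b minus miR-200c between the groups turned to -0.020 with normexp and ran from 0.01 to 0.46 when 1 array was left out. The miR-429 difference turned to -0.46 with normexp and -0.58 with the total gene signal, and ran from 0.07 to 0.50 when 1 array was left out. On Activin 2, where the software did not detect miR-429, its total gene signal was 0.1, against 24.1 to 93.9 on the other arrays. The cause of these changes between settings was not tested. With a replicate block, limma called 1 miRNA, and the log2 fold changes stayed at 0.29 for miR-200b (adjusted p 0.751) and 0.10 for miR-200c (adjusted p 0.925). miR-141 was detected on 1 array by the software's call and on 0 otherwise. miR-200a and miR-141 were not well above background on any array, so the data give no change for them.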
